A study of Mus musculus with 6 samples.

Results

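Dendritic cell genes were examined in the RNA of macrophages sorted from healing skin wounds. The 9 genes Cd209a, Zbtb46, Flt3, Ccr7, Fscn1, Ccl17, Ccl22, Batf3 and Itgae were taken by gene symbol from a table of 15168 genes, and all 9 were present in it. Bulk RNA-sequencing had been carried out on 3 young samples (mice of 12 weeks) and 3 aged samples (mice of 24 months), and the labels mark the samples of each age as set A, set B or set C. All mice were wild type females of the C57BL6/J strain with 2 full-thickness wounds on the back, and the wounds were taken on Day 3. The cells were live CD45+ CD11b+ CD64+ F4/80+ cells, a gate that names macrophages, that contained no dendritic cell marker and that did not exclude Ly6G+ neutrophils. Neither the meaning of the set letters nor whether a sample held cells of 1 mouse or of several is given in the labels, so the p-values measure the spread between these samples, which may be technical. The mice were housed at either of 2 sites, and the site of each sample is not given.

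Dendritic cells take up antigen in tissues, carry it to lymph nodes and present it to T cells. Conventional dendritic cells (cDC) develop under the growth factor receptor FLT3 and fall into type 1 cells (cDC1), which need the transcription factor BATF3 and cross-present antigen, and type 2 cells (cDC2), which depend more on IRF4. On maturation, dendritic cells of the skin switch on the chemokine receptor CCR7, which guides them along lymphatic vessels, together with the actin-bundling protein fascin and the chemokines CCL17 and CCL22, which attract T cells that carry CCR4. Monocytes that enter inflamed skin can take on several of these genes as well, so that those genes do not belong to dendritic cells alone.

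The samples held 15270103 to 17927483 expected counts in all, and a single count was worth 0.0553 to 0.0701 CPM (counts scaled to library size, on library sizes scaled by the trimmed mean of M-values). Genes of the sorted proteins were measured in every sample. Adgre1, the gene of F4/80, was at 290 to 357 CPM in young and 172 to 241 CPM in aged samples and fell with age (log2 fold change -0.69, edgeR adjusted p = 0.0292, and 0.0751 to 0.113 without young B, young C, aged A or aged C). Fcgr1, the gene of CD64, lay between 422 and 514 CPM over both ages. Itgam, the gene of CD11b, went the other way from Adgre1. It was at 334 to 402 CPM in young and 702 to 822 CPM in aged samples (log2 fold change 0.99, edgeR adjusted p = 0.00735). The 9 dendritic cell genes together summed to 17.2 to 41.9 CPM in young and 37.3 to 69.5 CPM in aged samples, against 39421 to 57879 CPM for the 14 macrophage and monocyte markers listed. Most of the marker sum was Lyz2 (16240 to 38843 CPM) and Cd14 (7590 to 19916 CPM). The sums are not scaled to gene length, so they do not measure the share of dendritic cells. In bulk RNA, fewer cells of a type and less RNA per cell cannot be told apart.

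Sequence upstream of the transcription start is shown for Ccl17, Ccl22 and Fscn1, 3 genes of the mature dendritic cell programme that had higher means in aged samples, to show what lies at their start sites. The sequences are from RefSeq on the GRCm38.p6 build (mm10) and were found for 7 of the 9 genes, Ccr7 and Itgae being unmatched. Ccl17 and Ccl22 both lie on chromosome 8. Only bases upstream of both the RefSeq start and the gene start of the deposited table are shown, and capitals mark matches to the motifs searched.
Ccl17, chr8:94810203-94810452, plus strand: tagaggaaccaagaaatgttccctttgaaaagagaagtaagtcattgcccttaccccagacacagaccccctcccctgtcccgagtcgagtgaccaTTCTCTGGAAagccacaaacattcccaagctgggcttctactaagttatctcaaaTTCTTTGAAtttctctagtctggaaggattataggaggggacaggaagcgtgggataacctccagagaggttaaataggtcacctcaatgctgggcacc
Ccl22, chr8:94745434-94745589, plus strand: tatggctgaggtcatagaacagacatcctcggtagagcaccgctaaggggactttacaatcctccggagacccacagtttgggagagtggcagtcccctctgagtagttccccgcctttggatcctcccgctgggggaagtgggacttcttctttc
Fscn1, chr5:142960105-142960342, plus strand: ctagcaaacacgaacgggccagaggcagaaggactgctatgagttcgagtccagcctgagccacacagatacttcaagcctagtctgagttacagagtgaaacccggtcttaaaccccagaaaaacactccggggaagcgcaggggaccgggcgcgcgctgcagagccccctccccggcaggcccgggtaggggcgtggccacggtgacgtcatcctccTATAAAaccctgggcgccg
The 250 bases upstream of each RefSeq start were searched on both strands for the letters TTCNNNNGAA (a STAT6 element), TTCNNNGAA (an element of other STAT proteins), TATAAA and the kappaB consensus. The promoter of Ccl17 held 1 match to the first, at bases -154 to -145 from the start, and 1 match to the second, at bases -99 to -91, which did not overlap. That of Fscn1 held TATAAA at bases -31 to -26, and that of Ccl22 held none of the 4 motifs. Among all 32851 promoters of the same length, 5.85% held TTCNNNNGAA, 7.02% TTCNNNGAA, 12.4% TATAAA and 7.25% the kappaB consensus. A match describes the letters and is not a measured binding site.

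Of the 9 genes, 7 had enough counts to be tested between aged and young samples, Ccl17 and Itgae being too low. None of the 7 passed the edgeR quasi-likelihood test at an adjusted p under 0.05 (Benjamini-Hochberg over 11878 genes), whereas 17.7% of all tested genes did (9.73% higher and 7.97% lower in aged samples). None passed with a change of over 2-fold as well, against 8.79% of all tested genes (4.59% higher and 4.2% lower). An unadjusted p under 0.05 was found for 3 of them, Ccr7, Fscn1 and Ccl22, all with higher means in aged samples, as it was for 34.5% of all tested genes (18.1% higher and 16.5% lower). DESeq2 passed 1 of the 9 (Ccl22), against 21.5% of the 11912 genes to which it gave an adjusted p (12.4% higher and 9.16% lower). limma-voom with sample quality weights passed 3 (Ccr7, Ccl22 and Fscn1), against 30.7% of all tested genes (16.3% higher and 14.4% lower). With the set letter as a block, edgeR passed 2 (Ccr7 and Ccl22, both higher), where 1202 of all 11878 tested genes were higher and 912 lower. The letters do not establish pairing. Of the tested genes, 5 had a positive and 2 a negative log2 fold change (aged minus young). Samples of both ages did not overlap for 3 of the 9 genes, Zbtb46, Fscn1 and Ccl22, each higher in aged samples, and 33.1% of all listed genes had samples that did not overlap (16.6% with aged higher and 16.5% with aged lower), so the share among the 9 genes was near the background for both directions together, with all 3 in the higher direction.

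**Figure D1:**
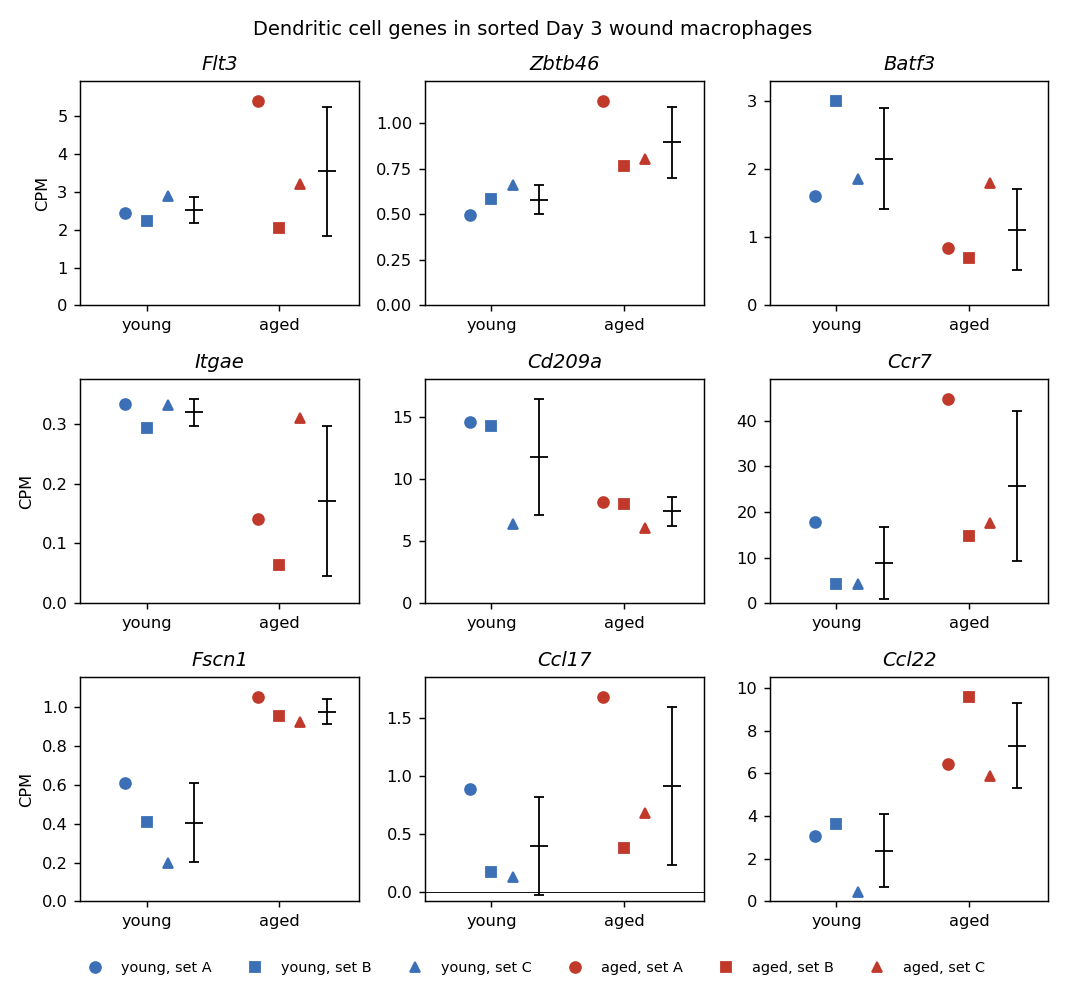
CPM of each of the 9 genes (y axis) in young (blue) and aged (red) samples, with a symbol for each set letter and the mean ± SD (n = 3 per age) in black beside the points. Aged samples lie above young samples for Zbtb46, Fscn1 and Ccl22 and overlap with them for the other 6 genes, and the lower SD bar of Ccl17 in young samples passes below 0.

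The genes of dendritic cell development were low in both ages. Flt3, which encodes the receptor for the growth factor FLT3 ligand and lies at chr5:147330741-147400489 on the minus strand, was at 2.43, 2.23 and 2.91 CPM in young A, B and C and at 5.39, 2.04 and 3.21 CPM in aged A, B and C. Aged A stood highest and aged B lowest of all 6 samples, so the ages overlapped. Young samples had a mean of 2.52 ± 0.347 CPM (SD, n = 3) and aged samples one of 3.55 ± 1.70 CPM, with a log2 fold change estimated at 0.49 (SE, standard error, 0.39, 95% interval -0.37 to 1.35, edgeR adjusted p = 0.399). Without aged A the log2 fold change of Flt3 was 0.062 (adjusted p = 0.929 in edgeR).

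Zbtb46, which encodes a zinc finger transcription factor that marks conventional dendritic cells among myeloid cells, rested on few reads. Its counts were 9, 10 and 10 in young A, B and C and 16, 12 and 13 in aged A, B and C. All aged samples were higher than all young samples, although the gap between young C (0.661 CPM) and aged B (0.764 CPM) was smaller than the worth of 2 counts. The log2 fold change was 0.62 (SE 0.48, 95% interval -0.44 to 1.68, edgeR adjusted p = 0.390), which did not pass the test and whose interval includes 0. The gene lies at chr2:181387762-181459426 on the minus strand.

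Batf3, whose product pairs with JUN proteins and is needed for cDC1, had the opposite sign. It was at 1.60, 2.99 and 1.85 CPM in young A, B and C, and at 0.841, 0.701 and 1.79 CPM in aged A, B and C. Aged A and B lay below all young samples, whereas aged C lay between young A and young C. The means were 2.15 ± 0.741 and 1.11 ± 0.593 CPM, a log2 fold change of -0.94 (SE 0.48, 95% interval -2.00 to 0.12, edgeR adjusted p = 0.191). Over the 6 fits that each left out 1 sample, it ranged from -1.47 to -0.62 with no adjusted p under 0.05. Batf3 lies at chr1:191097847-191108945 on the plus strand.

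Of the surface markers, Cd209a was the more abundant. It encodes a C-type lectin of the DC-SIGN family that is used to recognise monocyte-derived dendritic cells and cDC2, and it lies at chr8:3743397-3748984 on the minus strand. Cd209a was at 14.6, 14.3 and 6.41 CPM in young A, B and C, and at 8.13, 8.02 and 6.05 CPM in aged A, B and C. Young A and B stood above the rest, whereas young C lay within the range of the aged samples. The means were 11.8 ± 4.63 and 7.40 ± 1.17 CPM, a log2 fold change of -0.67 (SE 0.31, 95% interval -1.36 to 0.024, edgeR adjusted p = 0.158). Without young C it was -0.96 (adjusted p = 0.0762 in edgeR). Cd209a has close relatives in the same cluster of genes, and expected counts may divide reads between them.

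The Cd209 relatives in the table gave no common direction. Of the 6 members of the family that were tested, Cd209a included, 3 had a positive and 3 a negative log2 fold change, and none passed the edgeR test in either direction, nor DESeq2, limma-voom or an unadjusted p under 0.05 (0 of 6 in each). Itgae encodes CD103, the integrin alpha E chain of cDC1 and of T cells in epithelia, and lies at chr11:73090583-73147446 on the plus strand. Its counts were 6, 5 and 5 in young and 2, 1 and 5 in aged A, B and C, and 2 of the aged samples were thus under the floor of 3 counts used here. The sums of 16 counts in young samples (95% exact Poisson interval 9.15 to 26.0) and 8 counts in aged samples (3.45 to 15.8) had overlapping intervals, which cover counting error alone. A difference in Itgae was not detectable at this depth. Itgb7, the gene of the beta chain that pairs with CD103 and with other alpha chains, was far more abundant and did rise, as given with the partner genes.

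The migration genes had higher means in aged samples. Ccr7, the receptor for the lymphatic chemokines CCL19 and CCL21, lies at chr11:99144196-99155077 on the minus strand and had 323, 71 and 65 counts in young A, B and C and 638, 232 and 286 counts in aged A, B and C. This gave 17.9, 4.17 and 4.29 CPM in young and 44.7, 14.8 and 17.7 CPM in aged samples. Set A was the highest of both ages by a wide margin, and young A lay between aged A and aged C, so the ages overlapped through young A alone. The means were 8.78 ± 7.87 and 25.7 ± 16.5 CPM, a log2 fold change of 1.54 (SE 0.58, 95% interval 0.27 to 2.81), with an unadjusted edgeR p of 0.0223 and an adjusted p of 0.0860. The result for Ccr7 depended on the set A samples, and leaving out young A gave a log2 fold change of 2.61 (edgeR adjusted p = 0.00582) and leaving out aged A gave 0.88 (adjusted p = 0.290). limma-voom, which gives less weight to samples that stand apart, passed it with 1.81 (adjusted p = 0.0128). Ccr7 also passed with the set letter as a block (edgeR adjusted p = 0.00493), although the letters do not establish pairing.

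Fscn1, which encodes the actin-bundling protein fascin of dendritic cell protrusions, was measured at few counts but with little spread in aged samples. It had 11, 7 and 3 counts in young A, B and C and 15 counts in each of the aged samples. In CPM, the young samples ran from 0.198 to 0.608 and the aged samples from 0.926 to 1.05, without overlap. The log2 fold change was 1.23 (SE 0.54, 95% interval 0.039 to 2.42), with an unadjusted edgeR p of 0.0441 and an adjusted p of 0.133. The limma-voom adjusted p was 0.0450 and that of DESeq2 0.237. Fscn1 lies at chr5:142960343-142973185 on the plus strand.

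The chemokine Ccl22 had a log2 fold change close to that of Ccr7. It lies at chr8:94745590-94751699 on the plus strand and encodes a ligand of CCR4 that is made by mature dendritic cells and by macrophages. Ccl22 was at 3.04, 3.64 and 0.462 CPM in young A, B and C, and at 6.45, 9.55 and 5.87 CPM in aged A, B and C. Young C stood far below the other young samples with 7 counts, and all aged samples lay above all young samples. The means were 2.38 ± 1.69 and 7.29 ± 1.98 CPM, a log2 fold change of 1.60 (SE 0.53, 95% interval 0.42 to 2.77, unadjusted p = 0.0124 and adjusted p = 0.0611 in edgeR). Without young C it was 1.12 (adjusted p = 0.0968 in edgeR). DESeq2 gave 1.62 with an adjusted p of 0.0142, and limma-voom 2.62 with an adjusted p of 0.00742, while over the 6 fits that left out 1 sample the edgeR adjusted p lay between 0.0630 and 0.136. With the set letter as a block, Ccl22 passed the edgeR test, under the same limit as Ccr7.

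Ccl17, the other CCR4 ligand, lies at chr8:94810453-94812036 on the plus strand and was close to the limit of detection. Its counts were 16, 3 and 2 in young A, B and C, and 24, 6 and 11 in aged A, B and C. As with Ccr7, set A held the highest value of each age, and young A (0.885 CPM) lay above aged B and C. With no filter on low counts, the log2 fold change was 1.15 (SE 0.85, edgeR adjusted p = 0.404). Ccl17 and Ccl22 thus had their extreme samples in different places, Ccl17 in set A and Ccl22 in young C.

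**Figure D2:**
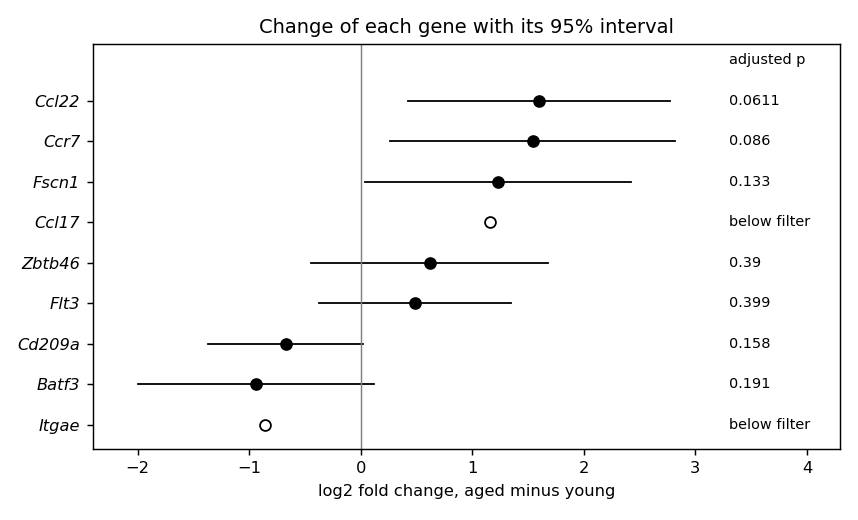
Log2 fold change (aged minus young, x axis) of each of the 9 genes with its 95% interval (line) and its edgeR adjusted p on the right. Open circles are Ccl17 and Itgae, which were below the filter and are drawn from the fit without it, and the intervals of Ccl22, Ccr7 and Fscn1 lie above 0 although their adjusted p-values (0.0611, 0.0860 and 0.133) were over 0.05.

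Levels of different genes were set side by side as CPM per kilobase of exon. In young samples the order was Cd209a (7.43 ± 2.93), Ccr7 (4.44 ± 3.98), Batf3 (1.35 ± 0.464), Ccl22 (1.02 ± 0.726), Ccl17 (0.774 ± 0.822), Flt3 (0.409 ± 0.0562), Fscn1 (0.135 ± 0.0681), Itgae (0.0695 ± 0.00476) and Zbtb46 (0.0684 ± 0.00958). Of these neighbours, the samples of Ccr7 and Batf3 and those of Flt3 and Fscn1 did not overlap, and all other neighbours did. In aged samples, Ccr7 stood first at 13.0 ± 8.34 CPM per kilobase, followed by Cd209a (4.68 ± 0.738), Ccl22 (3.13 ± 0.853), Ccl17 (1.78 ± 1.32), Batf3 (0.696 ± 0.372), Flt3 (0.574 ± 0.276), Fscn1 (0.325 ± 0.0216), Zbtb46 (0.105 ± 0.0230) and Itgae (0.0373 ± 0.0274). Here the neighbours Ccr7 and Cd209a, Fscn1 and Zbtb46, and Zbtb46 and Itgae did not overlap. Cd209a and Ccr7 thus changed places between the ages, and in young samples these neighbours did overlap.

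Among the 14855 listed genes with a known exon length, Cd209a was at percentile 74.6 of the level per kilobase in young and 67.4 in aged samples, and Ccr7 at percentile 66.6 and 81.6. Ccl22 was at percentile 42.5 in young and 61.2 in aged samples. The genes most specific to conventional dendritic cells lay lower, with Flt3 at percentile 29.6 and 34.4 and Zbtb46 at percentile 9.68 and 13.1.

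**Figure D3:**
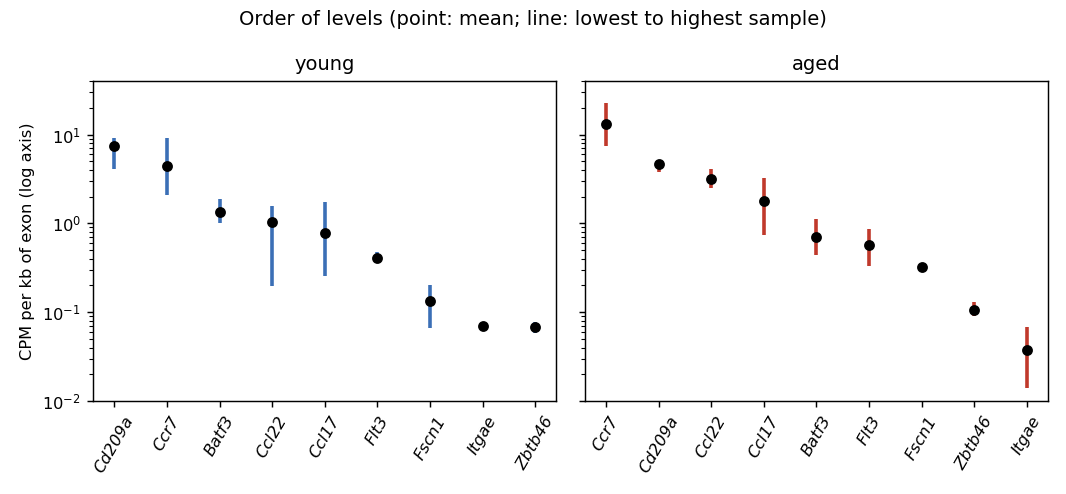
Level of the 9 genes in CPM per kilobase of exon (y axis, log scale) in order of their mean in young (left) and aged (right) samples, with points for means and lines from the lowest to the highest sample. Cd209a leads in young samples and Ccr7 in aged samples, with Zbtb46 and Itgae at the lower end of both.

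Wider lists of dendritic cell genes held 86 genes. The 6 lists were of shared cDC, cDC1, cDC2, mature migratory dendritic cell, plasmacytoid dendritic cell and Langerhans cell genes. Of the 86 genes, 70 were tested. Of these, 17 rose and 4 fell with age at an edgeR adjusted p under 0.05, where 9.73% of all tested genes rose and 7.97% fell. Their median was 0.31 on the log2 scale, against -0.017 over all tested genes. These shares and this median over all tested genes are the background for every list that follows. Which cells expressed the listed genes was not tested. The count of 17 was 3 without young C, 9 without aged C, 10 without aged A and 11 without young B, and the count of 4 was 2 without young C and 6 without young A or aged B.

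Genes on the mature migratory dendritic cell list made up most of the rises. In CPM per kilobase, means in young and aged samples were 16.8 and 29.8 for Relb and 15.8 and 36.9 for Cd274. Those of Pdcd1lg2 were 1.20 and 6.31, and those of the cDC gene Zbtb46 were 0.0684 and 0.105. The paper reported raised NF-kB and TNF signalling genes in the aged macrophages, and their part in these rises was not tested. Of 27 tested, 10 rose and 1 fell (median log2 fold change 0.41), and the count of 10 was 0 without young C, 4 without young B, 5 without aged C and 6 without aged A. The count of 1 that fell was 2 with DESeq2, with limma-voom and without young A, and 0 without young C or aged C. Pdcd1lg2, the gene of the inhibitory ligand PD-L2, was at 4.70, 0.821 and 1.52 CPM in young and 16.2, 7.07 and 13.9 CPM in aged A, B and C, a log2 fold change of 2.38 (SE 0.54, edgeR adjusted p = 0.0189, and 0.0936 without young C, 0.0612 without aged C and 0.0550 without young B). All its aged samples lay above all young samples. Socs2, a feedback inhibitor of cytokine receptors, had a log2 fold change of 1.50 (edgeR adjusted p = 0.00815, and 0.0549 without young C). Spsb1, an adaptor of a ubiquitin ligase, had one of 1.38 (edgeR adjusted p = 0.0166, and 0.0612 without young C and 0.0600 without young B). Cd274, which encodes PD-L1, rose by 1.23 (adjusted p = 0.0122, and 0.0762 without young C) and Relb, an NF-kB subunit of dendritic cell maturation, by 0.83 (adjusted p = 0.0102, and 0.0528 without young C, all in edgeR).

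Not all maturation genes moved together. Zmynd15, a zinc finger gene, fell by 1.01 on the log2 scale (edgeR adjusted p = 0.0154, and 0.0788 without young C and 0.0642 without aged C). Cd40, the receptor through which T cells license dendritic cells, was at 29.3, 52.2 and 33.7 CPM in young and 27.5, 16.2 and 25.2 CPM in aged A, B and C, lower in every aged sample, with a log2 fold change of -0.74 that did not pass (edgeR adjusted p = 0.0726, and 0.0368 without young A, with 0.0485 in DESeq2 and 0.0445 in limma-voom). Il4i1, an amino acid oxidase of mature dendritic cells, was at 0.330 to 1.77 CPM in young and 2.24 to 3.27 CPM in aged samples (log2 fold change 1.75, edgeR adjusted p = 0.0672, and 0.00521 without young A). Il12b, the cytokine subunit with which dendritic cells drive T helper 1 responses, and Cacnb3 did not exceed 0.608 and 0.679 CPM in any sample and were not tested.

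**Figure D4:**
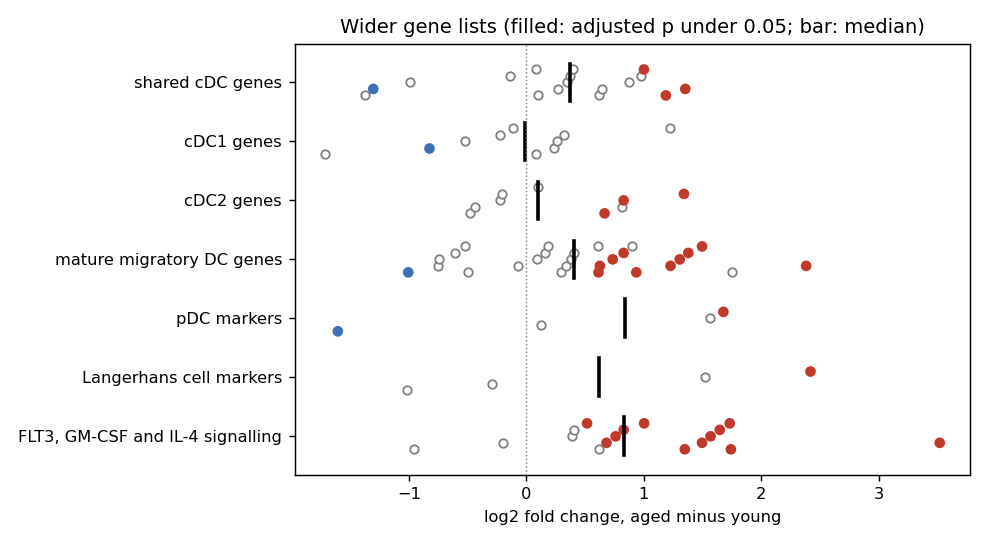
Log2 fold change (aged minus young, x axis) of each tested gene in 7 lists of dendritic cell and growth factor genes. Filled points passed the edgeR test (red higher, blue lower in aged), open points did not, and a black bar marks each list's median, which is 0.41 for mature migratory dendritic cell genes, -0.014 for cDC1 genes and 0.83 for the signalling genes.

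Genes of the dendritic cell subsets gave smaller counts. Among 10 tested cDC1 genes, 0 rose and 1 fell (0 rose also in DESeq2, in limma-voom and at an unadjusted p under 0.05), and the median log2 fold change was -0.014. Without young A 1 rose, and the count of 1 that fell was 2 with limma-voom, 3 without aged B and 0 without young C. The gene that fell was Naaa, a lysosomal lipid amidase, with a log2 fold change of -0.83 (edgeR adjusted p = 0.0122, and 0.0641 without young C). Xcr1, the chemokine receptor that defines cDC1, was at 19.2, 0.528 and 1.85 CPM in young and 34.5, 4.65 and 11.9 CPM in aged A, B and C. It was highest in set A of both ages, like Ccr7, and its log2 fold change of 1.22 did not pass (edgeR adjusted p = 0.408, and 0.0122 without young A). The other defining cDC1 gene listed, Clec9a, was not analysed here.

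Of 9 tested cDC2 genes, 3 rose and 0 fell (0 fell also in DESeq2, in limma-voom and at an unadjusted p under 0.05), and the count of 3 was 1 without young C and 2 without young B, aged B or aged C. Those that rose were Notch2, a receptor that directs cDC2 development (log2 fold change 1.34, edgeR adjusted p = 0.00379, and under 0.05 without any 1 sample), Relb, and Tnip3, an inhibitor of NF-kB signalling (0.67, edgeR adjusted p = 0.0327, and 0.0599 to 0.135 without young B, young C, aged B or aged C). The genes that define the subset did not pass. Clec10a was at 62.2 to 92.5 CPM in young and 31.2 to 89.9 CPM in aged samples (log2 fold change -0.43, edgeR adjusted p = 0.366), and Mgl2 at 12.4 to 29.4 CPM in young and 10.5 to 17.3 CPM in aged samples (-0.48, adjusted p = 0.313). Irf4, at 2.11 to 3.52 CPM in young and 1.66 to 5.50 CPM in aged samples, had a log2 fold change of 0.10 (edgeR adjusted p = 0.899) whose sign turned without young C or aged C.

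Among 17 tested genes shared by conventional dendritic cells, 3 rose and 1 fell (median 0.37), and the 3 became 1 without young C, aged A or aged C. The count of 1 that fell was 2 with DESeq2, with limma-voom and without young A. P2ry10, a lysophospholipid receptor, had a log2 fold change of 1.35 (edgeR adjusted p = 0.0225, and 0.0597 to 0.100 without young B, young C, aged A or aged C). Traf1, a signalling adaptor of TNF receptors, had one of 1.19 (adjusted p = 0.00918) and Cd24a, which encodes a surface glycoprotein, rose from 55.6, 116 and 105 CPM in young to 229, 153 and 171 CPM in aged A, B and C (adjusted p = 0.0317, and 0.0771 to 0.0944 without young C, aged A or aged C, all in edgeR). Slamf7, a receptor of the SLAM family, fell by 1.30 on the log2 scale (edgeR adjusted p = 0.00331). Traf1 and Slamf7 kept an adjusted p under 0.05 without any 1 sample.

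Markers of plasmacytoid dendritic cells and Langerhans cells did not point to a common direction. Of 4 tested plasmacytoid genes, Runx2, a transcription factor, rose by 1.68 (edgeR adjusted p = 0.0279, and 0.0591 to 0.120 without young B, young C, aged A or aged C) and Bst2, an interferon-induced antiviral protein, fell by 1.60 on the log2 scale (edgeR adjusted p = 0.0045). Siglech, which defines these cells, had 0 counts in young C and aged A and at most 1.40 CPM, in aged B. Of 4 tested Langerhans cell genes, Cdh1, the gene of E-cadherin, was at 1.52 to 1.83 CPM in young and 6.67 to 10.4 CPM in aged samples and rose by 2.41 on the log2 scale (edgeR adjusted p = 0.00195, and under 0.05 without any 1 sample). Keratinocytes also express Cdh1, and the summed level of their markers was highest in aged B. In aged A and C, Krt14 and Epcam were above all young samples. Krt5 (0 CPM in both) and Krt10 (0.350 and 0.309 CPM) were not. The part of keratinocytes in the rise of Cdh1 was not tested. None of the 4 Langerhans cell genes fell (0 also in DESeq2, in limma-voom and at an unadjusted p under 0.05). Cd207, the gene of langerin that defines these cells, was at 14.7, 1.06 and 6.14 CPM in young and 4.97, 3.88 and 1.98 CPM in aged A, B and C (log2 fold change -1.02, edgeR adjusted p = 0.321). Without young A its log2 fold change was 0.021 (edgeR adjusted p = 0.986). Epcam, the gene of an epithelial adhesion molecule, had 1, 2 and 0 counts in young and 12, 29 and 7 counts in aged A, B and C, and was too low to be tested in the filtered fit (without the filter, log2 fold change 3.97, edgeR adjusted p = 0.0284).

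Most tested genes on the list for FLT3, GM-CSF and IL-4 signalling rose with age. The JAK, STAT and SOCS genes on it also serve other cytokines, and the paper reported enrichment of IL6-Jak-Stat3 signalling genes in aged macrophages. Il4 itself was not tested, with 4, 0 and 2 counts in young and 6, 1 and 1 counts in aged A, B and C. The receptors of GM-CSF and IL-4 act through JAK kinases and STAT proteins, which in turn induce the SOCS and CISH inhibitors, whereas FLT3 is itself a receptor tyrosine kinase. Of 17 tested genes on the signalling list, 12 rose and 0 fell (0 also in DESeq2, 1 in limma-voom and 1 at an unadjusted p under 0.05). Of all tested genes, 9.73% rose and 7.97% fell. The median of the list was 0.83 on the log2 scale. The count of 12 was 3 without young C, 5 without aged C and 6 without young B. Csf2, which encodes GM-CSF, had 5, 2 and 3 counts in young A, B and C and 26, 56 and 27 counts in aged A, B and C (log2 fold change 3.52, SE 0.57, edgeR adjusted p = 0.00623). All its aged samples lay above all young samples.

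Cish, an inhibitor induced by STAT5, had a log2 fold change of 1.74 (edgeR adjusted p = 0.00127) and Socs3 one of 1.73 (adjusted p = 0.00898, and 0.0565 without young C, in edgeR). Cish and Csf2 kept an adjusted p under 0.05 without any 1 sample. Flt3l, the ligand of the receptor encoded by Flt3, had the opposite sign. It was at 2.66, 6.34 and 4.23 CPM in young and 3.36, 1.78 and 1.67 CPM in aged A, B and C, with overlap between young A and aged A, and its log2 fold change of -0.96 did not pass (edgeR adjusted p = 0.128, and 0.0370 in limma-voom). Receptor and ligand of the FLT3 pair thus had estimates of opposite sign, neither past the test.

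Most of the other partners of the 9 genes that were tested did not pass. Of 9 tested ligands, receptors and partners, 2 rose and 0 fell (0 also in DESeq2, 1 in limma-voom and 2 at an unadjusted p under 0.05). These were Cdh1, whose product is the ligand of CD103, and Itgb7, which was at 73.6, 89.6 and 103 CPM in young and 244, 153 and 163 CPM in aged A, B and C (log2 fold change 1.08, edgeR adjusted p = 0.0129, and 0.0538 without young C). Ccl21a, the gene of a ligand of CCR7, did not exceed 1.42 CPM in any sample. The CCR7 ligand gene Ccl19 and Ccr4, the receptor gene for CCL17 and CCL22, were not analysed here. In the Batf family, 0 of 3 tested genes passed in either direction in edgeR, in DESeq2, in limma-voom and at an unadjusted p under 0.05, and all 3 had negative log2 fold changes.

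Markers of other cells moved with some of the samples. Of 14 macrophage and monocyte markers, 3 rose and 4 fell. The summed level of mast cell markers was highest in set A of both ages. Cpa3, a mast cell protease, was at 23.5, 15.1 and 7.33 CPM in young and 17.7, 0 and 0 CPM in aged A, B and C, and the 6 mast cell markers summed to 26.2 to 95.6 CPM in young samples and to 64.8, 0.255 and 0.0618 CPM in aged A, B and C. Of 5 tested mast cell markers 0 rose and 0 fell in edgeR (0 also in DESeq2 and at an unadjusted p under 0.05), whereas all 5 were lower in aged samples past the threshold with limma-voom. Cpa3 was also lower past the threshold in 1 of the 6 fits that left out 1 sample (edgeR adjusted p = 0.00281). Within each age, set A thus held the highest summed level of mast cell markers and the highest levels of Ccr7, Ccl17 and Xcr1. The sort required F4/80 and CD64, which mark macrophages and not mast cells, and the part of mast cells in these values was not tested.

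Keratinocyte and fibroblast RNA was highest in aged B. Krt14, a keratin of basal keratinocytes, was at 80.2 CPM in aged B and at most 0.865 CPM in the other 5 samples, and the 6 keratinocyte markers analysed, of 7 listed, summed to 113 CPM in aged B, 1.67 to 1.96 CPM in the other aged samples and 0.587 to 0.727 CPM in young samples. The 6 fibroblast markers summed to 119 CPM in aged B against 12.4 to 41.0 CPM in the other samples, Col1a1 being at 15.6 CPM in aged B and at most 4.01 CPM elsewhere. Aged B was also the highest sample for Ccl22, and without aged B the log2 fold change of Ccl22 was 1.36 (edgeR adjusted p = 0.136). The sort required CD45, which keratinocytes and fibroblasts lack, and the part of their RNA in these values, Ccl22 included, was not tested.

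Lymphocyte markers were low, and neutrophil markers were more abundant. The 12 T and NK cell markers analysed, of 14 listed, summed to 10.3 to 12.9 CPM in young and 8.79 to 11.8 CPM in aged samples, with Cd3e at 0.0661 to 0.411 CPM in young and 0.185 to 1.19 CPM in aged samples. Of the 4 tested, 1 fell, Cd4, at 1.72 to 2.82 CPM in young and 0.350 to 1.15 CPM in aged samples. The 3 B cell markers analysed, of 5 listed, summed to 4.62 to 12.9 CPM in young and 2.61 to 4.08 CPM in aged samples, most of it Cd79b, the 1 tested, which fell. The adjusted p-values of Cd4 (0.0386) and Cd79b (0.0308) in edgeR were over 0.05 in 5 of the 6 fits that left out 1 sample, reaching 0.137 for Cd4 and 0.118 for Cd79b. The 8 neutrophil markers analysed, of 9 listed, summed to 454 to 719 CPM in young and 479 to 1041 CPM in aged samples, with Ly6g at 6.14 to 10.9 CPM in young and 6.18 to 9.60 CPM in aged samples. Of 8 tested neutrophil markers 2 rose, Retnlg and Cxcr2. Their adjusted p-values in edgeR (0.0393 for Retnlg and 0.0340 for Cxcr2) were over 0.05 in 5 and 4 of the 6 fits that left out 1 sample, reaching 0.153 and 0.143. The part of neutrophils in the values above was not tested.

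**Figure D5:**
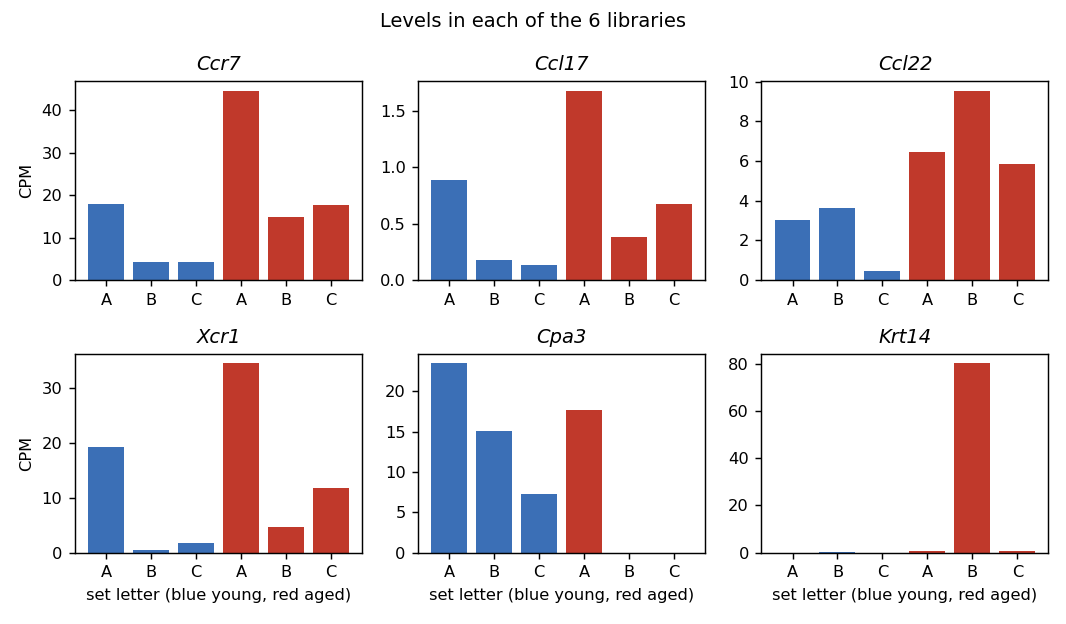
CPM (y axis) of 3 of the dendritic cell genes (Ccr7, Ccl17, Ccl22), the cDC1 gene Xcr1, the mast cell gene Cpa3 and the keratinocyte gene Krt14 in each of the 6 samples, with bars in blue for young and red for aged and the set letter on the x axis. Ccr7, Ccl17 and Xcr1 are highest in set A of both ages, Cpa3 is at 0 CPM in aged B and C, and Krt14 reaches 80.2 CPM in aged B.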

How the data were processed

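The authors aligned the reads of the 6 samples with STAR 2.7.3a to the mm10 genome (STAR and mm10 also per the submitters' processing notes), used Partek Flow to quantify Ensembl transcripts, and deposited expected counts per gene without normalisation. Whether strand was used is not stated. All genes in the deposited table have a total of at least 10. A second table with scaled counts and the authors' own fold changes and p-values was not used here. The expected counts (30.3% to 33.9% of values per sample not whole) were rounded, a step that changes low genes most. edgeR 4.0.16 in R 4.3.3 was used with TMM scaling, filterByExpr and its quasi-likelihood test (3 aged and 3 young samples, no block) with Benjamini-Hochberg adjustment. The design had assumed raw counts, and rounding is the change. Log2 CPM used a prior count of 2. Alternatives were DESeq2 1.42.0, limma-voom with sample quality weights (limma 3.58.1), DESeq2 size factors, other filters, a block for the set letter, and fits without 1 sample. Those on Adgre1, single genes of the wider lists and the signalling list were added after seeing the data. Exon lengths came from GENCODE M21 (97.9% of genes). The script was tested on simulated data. The 9 genes and all lists were chosen with earlier results of these data known. From each list other than the macrophage one, up to 3 genes past the test with the largest rise and 3 with the largest fall and the defining genes are named, and for each of the 9 genes with a mean of at least 1 CPM the 2 genes (mean of at least 10 CPM) with the most similar profile. Plots were drawn with matplotlib.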

Additional observations from a re-analysis of the deposited data

How the results depend on the processing

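The count of the 9 dendritic cell genes that passed in edgeR, 0 higher and 0 lower in aged samples, was 1 higher with DESeq2, 3 with limma-voom and 0 to 1 when 1 sample was left out, with or without the 2-fold threshold, and 0 lower in all alternatives run. Samples with the same set letter had correlated deviations from their age means in sets A and C (0.181 and 0.114) but not in set B (-0.021), so the letters do not establish pairing, and young C correlated best with aged B (0.138). With the letter as a replicate block, 2 of the 9 passed (also over 2-fold), Ccr7 (log2 fold change 1.71, edgeR adjusted p = 0.00493) and Ccl22 (1.82, adjusted p = 0.0309), and of the cDC1 genes 1 rose and 2 fell. No log2 fold change of the 9 genes changed sign under any alternative in which it could be fitted. Itgae could not be fitted beyond DESeq2 and the fit without a filter.

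Of all genes, 1156 rose and 947 fell, 1933 and 1713 with limma-voom, and 151 to 1574 and 67 to 1128 when 1 sample was left out (over 2-fold, 149 to 896 and 64 to 607, against 545 and 499). In the wider dendritic cell lists, 3 to 19 genes rose and 2 to 6 fell when 1 sample was left out, and 7 fell with limma-voom. The lowest counts came without young C. The median log2 fold change of cDC1 genes was positive with at least 10 counts in every sample (0.070) and with limma-voom (0.028), and ran from -0.11 to 0.11 when 1 sample was left out, being positive without young B and without young C (0.037). That of cDC2 genes was negative with the replicate block (-0.051) and ran from -0.20 (without aged C) to 0.42 when 1 sample was left out, and Irf4, the middle gene of that list, was at -0.051 with the block and at -0.57 to 0.42. Without young C both were -0.088. That of Langerhans cell genes was -0.30 with at least 10 counts in every sample, where 3 genes were left. Cd207 ran from -1.53 to 0.021 (without young A) and Ly6g from -0.12 to 0.33, being negative without young A, young C, aged A or aged C. The causes were not tested. Depth limits Zbtb46, Fscn1, Ccl17 and Itgae, with 1 to 24 counts per sample.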

Other observations

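For each of the dendritic cell genes with a mean of at least 1 CPM, the genes with the most similar profile over the 6 samples were sought among tested genes with a mean of at least 10 CPM, by the root mean square difference of log2 CPM centred on each gene's mean. With 6587 or 6588 candidates and 6 samples, close profiles are easily found, and the values are a description. Ccr7 was nearest to Fnip2 (0.323) and Dgat1 (0.359), where its own root mean square deviation from its mean was 1.20. Flt3 was nearest to A530064D06Rik (0.161) and Tcp11l2 (0.169), with an own deviation of 0.446. Cd209a was nearest to Dennd1a (0.233) and Ubald1 (0.237), with an own deviation of 0.501. Batf3 was nearest to Cfap410 and Tmem140 (0.200 and 0.202), with an own deviation of 0.651. For Ccl22 the nearest were Spsb1 at 0.634 and Ern1 at 0.696, with an own deviation of 1.30.

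Among the 9 genes themselves, the closest pairs by the same measure were Zbtb46 and Flt3 (0.280), Batf3 and Itgae (0.339) and Ccr7 and Ccl17 (0.350). The measure is small for any genes that vary little, and the prior count of 2 flattens low genes. Own deviations were 0.446 for Flt3 and 0.651 for Batf3, against 1.20 for Ccr7, so a small difference need not mean a shared profile. The chemokine genes Ccl17 and Ccl22 were 1.11 apart, farther than Ccl17 and Fscn1 (0.624). The samples of all these genes share their libraries, and those of Zbtb46, Itgae and Ccl17 rest on few counts.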
